A study of Mus musculus with 24 samples.

Results

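The collagen genes of 8 mouse astrocyte lines were examined. A gene was taken as a member when it is protein-coding and its GENCODE M21 symbol is Col, a number, a lower case a and a second number (Col1a1, Col4a2). Of the 44 such genes in the annotation, 35 were among the 14427 genes of the count table, and the other 9 (Col6a5, Col6a6, Col9a1, Col9a2, Col13a1, Col19a1, Col22a1, Col24a1 and Col26a1) were not analysed here. The 35 genes comprised 10 of fibrillar collagens, 9 of basement membrane collagens, 5 of FACIT collagens, 4 of type VI, 3 of the short-chain network types VIII and X, 3 of transmembrane collagens, and Col28a1. The rule read symbols alone, but the table it was applied to held genes filtered on CPM, the count scaled to library size.

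The study sequenced RNA from 24 libraries, 3 for each line, and each sex had 4 lines: a knockout (p53 KO) and 1 line each for the missense mutants p53 Y217C, p53 Y202C and p53 R172H. The question of the design was whether p53 missense mutations change gene expression relative to loss of p53, and whether they do so differently in male and female cells. All lines descend from cortical astrocytes of C57BL/6 pups at postnatal day 1 that carried 1 floxed and 1 deleted Trp53 allele, with at least 3 pups pooled per sex. For the mutant lines, a retrovirus that carries a mutant Trp53 cDNA with eGFP behind an IRES was introduced into the cells and green cells were sorted. The floxed allele was then removed in all lines with a lentivirus that expresses Cre and puromycin resistance, and cells were selected in puromycin. p53 KO lines received Cre without a mutant Trp53, so every line lacked the endogenous gene, and the mutant proteins were overexpressed rather than made at the endogenous level. Cells were grown in DMEM/F12 with 10% fetal bovine serum and were at passages 10 to 15. How the 3 libraries of a line were prepared is not given for the RNA-seq, and for cell experiments in general the methods name separate thaws and platings. The p-values therefore measure the spread between libraries of 1 line, which may be technical. Sex and culture cannot be told apart, since each sex is represented by 1 pool of pups. Each mutation is 1 line per sex, and the mutant lines also received the retrovirus and the eGFP sort. A change from p53 KO therefore cannot be told apart from a difference between lines or from those steps.

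Collagens are the main fibrous proteins of the extracellular matrix. Each molecule is built from 3 chains that wind into a triple helix, which requires glycine at regular positions of a chain, in repeats of the form Gly-X-Y, and chains made by different genes often join in 1 molecule. Fibrillar collagens form tensile fibrils, type IV forms the mesh of basement membranes, FACIT collagens sit on fibril surfaces, type VI forms beaded filaments around cells, and transmembrane collagens are held in the plasma membrane. In the healthy brain collagen is largely confined to meninges and vessel walls, and cultured astrocytes and gliomas make more of it.

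Total counts per library ranged from 52787288 to 136503809. Trp53 itself was at 12.6 ± 0.68 and 12.1 ± 0.67 RPKM (SD, n = 3) in male and female p53 KO. In males it was at 565 (p53 R172H), 574 (p53 Y202C) and 300 RPKM (p53 Y217C), and in females at 483, 147 and 917 RPKM in that order. The level thus differed between the sexes for the same mutation, and its part in the collagen differences was not tested. Gene-level counts do not separate deleted from remaining exons, so the level in p53 KO checks nothing about recombination. RPKM, used throughout for levels, is the count scaled to the union exon length in kilobases and to the TMM-scaled library size. Of 10 astrocyte markers, 9 were in the table, and their summed level per library ran from 34.4 to 99 RPKM, most of it from Sox9 (19.3 to 44.1 RPKM over the line means), Gja1 (7.9 to 21.6), Slc1a3 (0.368 to 32.9) and Aldh1l1 (0.0121 to 12.5). Slc1a2, S100b and Aldoc were at most 1.77 RPKM. Gfap was at most 0.061 RPKM in 7 lines and 1.64 in male p53 Y217C, and Aqp4 was at 1.29 RPKM there, 0.284 in male p53 Y202C and at most 0.0181 RPKM in the others. Of the other lists, 3 of 6 endothelial markers were in the table (Flt1, Cdh5 and Tek, 3.58 to 23.2 RPKM summed per library), 2 of 7 microglial ones (Tmem119 and Csf1r, 6.98 to 49) and 3 of 5 neuronal ones (Tubb3, Map2 and Syt1, 11.6 to 61.4). Tmem119 (7.09 to 46 RPKM) and Tubb3 (8.43 to 52.8) made up most of the last 2 sums, while Pecam1, Cldn5, Tie1, Cx3cr1, Aif1, P2ry12, Itgam, Ptprc, Rbfox3 and Snap25 were not among the genes analysed. Fibroblast and meningeal markers were all in the table (10 of 10, 62.1 to 285 RPKM summed). Of 8 mural markers, 6 were in the table, without Kcnj8 and Abcc9, at 1046.5 to 1801.6 RPKM summed per library. Most of that sum was Acta2 alone, at 1018 to 1605 RPKM. Whether fewer cells of a type or less RNA per cell lies behind a lower level cannot be told apart in these bulk libraries.

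The repeat that defines a collagen is visible in the coding sequence as a glycine codon (GGN) at the start of each triplet of codons, and a script counted the longest unbroken run of such triplets in the longest annotated coding sequence of each gene. The first 10 triplets of the longest run are shown for both chains of type I, for the main type IV chain and for Col28a1, which had the shortest run of the 35, with GGN codons in capitals. They were read from GENCODE M21 transcripts and start at base 502 of the coding sequence of Col1a1, 289 of Col1a2, 127 of Col4a1 and 829 of Col28a1.
Col1a1: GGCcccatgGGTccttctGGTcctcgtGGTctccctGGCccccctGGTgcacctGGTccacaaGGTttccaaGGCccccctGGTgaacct
Col1a2: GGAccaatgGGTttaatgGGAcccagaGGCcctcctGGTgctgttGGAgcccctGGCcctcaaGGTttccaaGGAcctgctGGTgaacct
Col4a1: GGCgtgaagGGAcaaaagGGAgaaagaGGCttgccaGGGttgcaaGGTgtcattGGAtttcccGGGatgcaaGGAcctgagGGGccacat
Col28a1: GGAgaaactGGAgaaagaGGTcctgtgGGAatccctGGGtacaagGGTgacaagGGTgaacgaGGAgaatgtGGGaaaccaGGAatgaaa

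Run length separated the fibrillar class from all others. Of the 10 fibrillar genes, 9 had runs of 337 to 344 triplets and Col27a1 had a shorter one. The longest run elsewhere was 113 triplets in Col9a3, the 6 type IV genes had runs of 39 to 66, and Col6a1 and Col6a2 both had 87. The 28 triplets of Col28a1 were still far from other genes: the median longest run of the 12618 other genes of the table with a coding sequence was 2, and 3 of them (0.0238%), Scara3, Colec12 and C1qtnf7, had 28 or more. Triplets in runs of at least 5 covered 86.18% of the codons of Col9a3, 79.21% of Col4a1, 73.3% of Col1a1, 53.5% of Col27a1, 10.11% of Col6a3 and 8.189% of Col12a1. The share of a chain in such runs thus did not separate the fibrillar class (53.5% to 77.19%) from all others. The 6 type IV genes lay close together (75.22% to 79.54%), and the FACIT genes spread most.

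**Figure D1:**
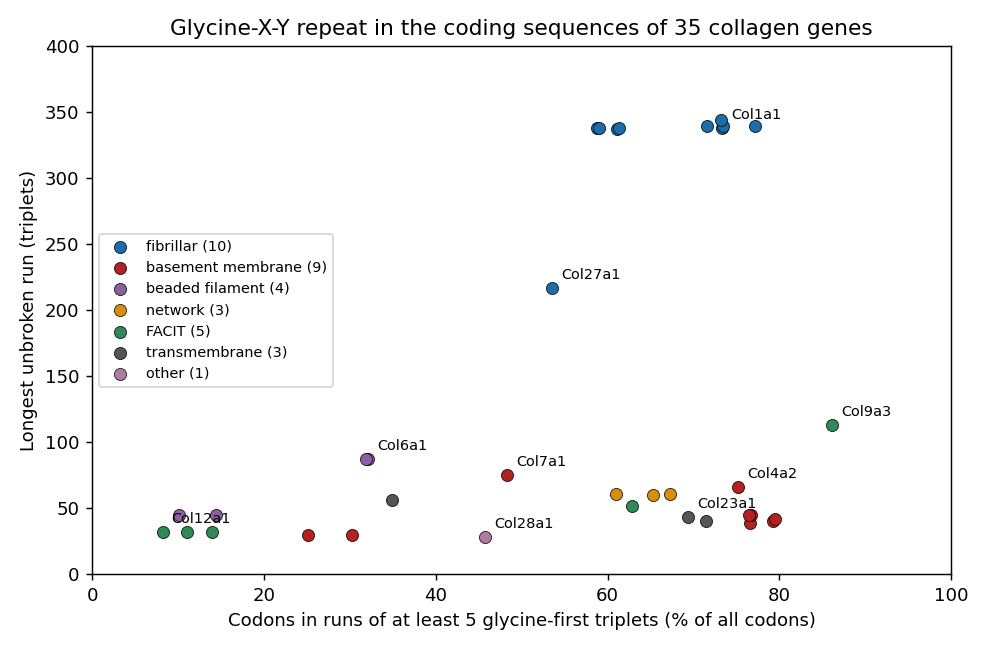
Longest unbroken run of Gly-X-Y triplets in the coding sequence of each of the 35 collagen genes (vertical axis, number of triplets) against the percentage of its codons that lie in runs of at least 5 triplets (horizontal axis), coloured by class. The 9 points at 337 to 344 triplets are all fibrillar genes, and Col28a1 is the lowest point at 28.

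The lines made much collagen RNA, and most of it came from few genes. Collagen genes took between 1.75% and 6.13% of all counts of a library. In males the p53 KO share was 4.56% ± 0.341 (SD, n = 3), and p53 R172H had 4.83% ± 0.261, p53 Y202C 1.89% ± 0.144 and p53 Y217C 2.81% ± 0.0409. In females the p53 KO share was 4.01% ± 0.137, and p53 R172H had 5.69% ± 0.382, p53 Y202C 5.15% ± 0.341 and p53 Y217C 3.78% ± 0.133. The 3 libraries of male p53 Y202C and the 3 of male p53 Y217C lay below all other libraries. Col1a1 and Col1a2, the chains of type I collagen, held 44.8% of the collagen counts in male p53 Y202C and 56% to 65% in the other 7 lines. The summed level of the 10 fibroblast and meningeal markers was lowest in the same 2 lines. It was 62.1 to 67.2 RPKM in male p53 Y217C and 124 to 128 RPKM in male p53 Y202C. It was highest in female p53 R172H (256 to 285 RPKM) and female p53 Y202C (255 to 280.4 RPKM), the lines with the largest collagen share. The sum in the remaining 4 lines ran from 169.8 to 225 RPKM. The orders of sum and share differed within these groups. Of the 2 low lines, male p53 Y202C had the larger sum and the smaller collagen share. Female p53 Y217C had a mean sum of 212 RPKM, above male p53 KO (194) and female p53 KO (171), and a smaller collagen share than either. The sum of the 2 microglial markers was also lowest in male p53 Y217C (6.98 to 7.59 RPKM) and male p53 Y202C (8.57 to 9.51 RPKM). It was highest in female p53 R172H (44.4 to 49 RPKM), followed by female p53 Y217C (40.8 to 43.9 RPKM). The endothelial sum also had its lowest line means in male p53 Y217C (3.72 RPKM) and male p53 Y202C (4.91), followed by female p53 R172H (5.10). The astrocyte, mural, oligodendrocyte lineage and neuronal sums did not have their 2 lowest line means in those male lines. The part of any of these sums in the collagen differences was not tested.

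Per length, Col1a1 was the most abundant collagen RNA, with a line mean of 512 to 3318 RPKM. Among the 14427 genes it ranked between 5 and 12 in 7 lines and 57 in male p53 Y202C. The median of the 8 line means was above 100 RPKM for 8 members (Col1a1, Col1a2, Col4a1, Col5a1, Col6a1, Col4a2, Col5a2 and Col3a1), above 10 RPKM for 18 and above 1 RPKM for 23. The spread between lines was smallest in Col8a1, whose highest line mean was 2.19 times the lowest, and Col4a5 (2.22 times), and among genes with a lowest line above the floor of 3 counts per library it reached 155 times in Col2a1, 186 in Col23a1 and 217.5 in Col28a1. Col10a1 and Col25a1, whose lowest lines were at or under that floor, have no such ratio, and Col25a1 differed at least 181-fold between the p53 Y217C lines. All 14427 genes of the deposited table had more than 1 CPM in at least 2 libraries. For 24 of the 35 members this held in 2 or more libraries of every line. Col4a3, Col6a4, Col10a1, Col25a1 and Col28a1 met it in 1 line each, so these 5 entered the table through their highest line and had to differ between lines. Col4a4, Col17a1 and Col23a1 met it in 2 lines each and likewise entered through their high lines. Tests of such genes that involve a high line are not independent of the filter. The counts and medians below include them.

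**Figure D2:**
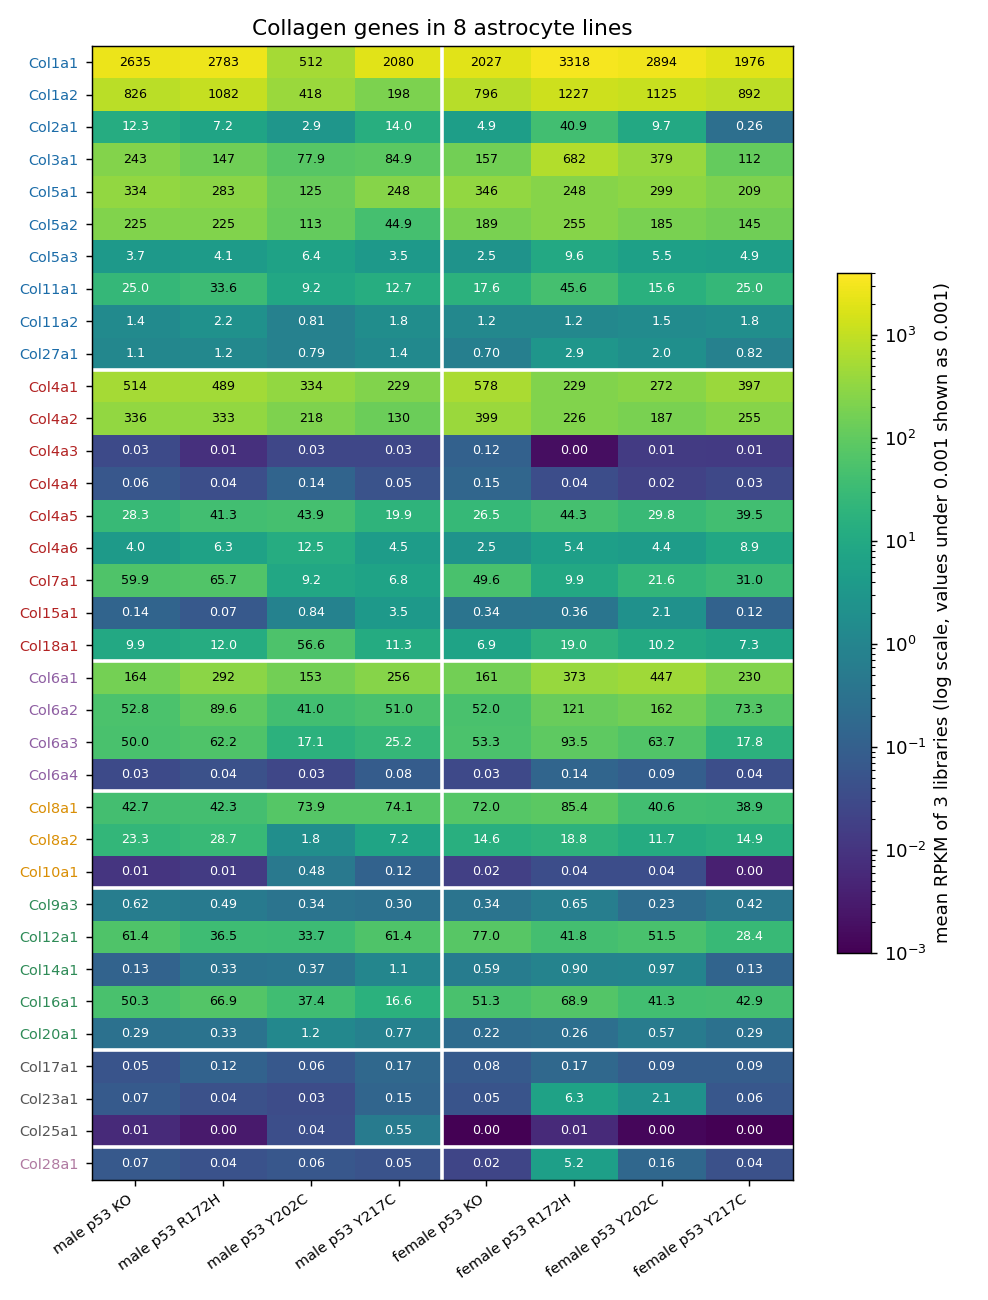
Mean level of each of the 35 collagen genes in each of the 8 lines (n = 3 libraries each), with genes as rows grouped by class and lines as columns. Colour and printed numbers give the level in RPKM on a log colour scale, and Col1a1 is the brightest row, with 512 RPKM in male p53 Y202C and 3318 RPKM in female p53 R172H.

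Each mutant line was compared with the p53 KO line of the same sex by edgeR's quasi-likelihood test, with Benjamini-Hochberg adjustment over all 14427 genes and a threshold of 0.05. The 3 comparisons within a sex share their p53 KO libraries. Male p53 R172H had the fewest calls: 18 of 35 collagen genes passed (12 higher and 6 lower), where 40.7% of all genes did (20.2% higher and 20.5% lower), and the median log2 fold change of the 35 was 0.12. In male p53 Y202C, 30 of 35 passed (11 higher and 19 lower) against a background of 73.0% of all genes (37.6% higher and 35.4% lower), with a median of -0.43. In male p53 Y217C, 26 of 35 passed (12 higher and 14 lower) against 70.5% (34.9% and 35.6%), with a median of -0.11. Female p53 R172H had 31 of 35 passing (24 higher and 7 lower) against 69.7% (34.4% and 35.3%), and the highest median of the 6 comparisons at 0.74. Female p53 Y202C also had 31 of 35 (19 higher and 12 lower), against 68.6% (34.3% and 34.3%), with a median of 0.48. In female p53 Y217C, 22 of 35 passed (7 higher and 15 lower) against 56.7% (28.0% and 28.7%), with a median of -0.04. Over all genes the medians lay between -0.01 and 0.01.

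The median size of a change among collagen genes, on the log2 scale and without its sign, was 0.43 in male p53 R172H, 1.00 in male p53 Y202C and 0.99 in male p53 Y217C. For all genes it was 0.19, 0.46 and 0.40. Female p53 R172H had 1.12, female p53 Y202C 0.83 and female p53 Y217C 0.54. The values for all genes were 0.39, 0.38 and 0.28. The 3 comparisons of a sex share their p53 KO libraries. Of the 35 genes, 7 passed in all 6 comparisons (Col3a1, Col4a5, Col5a1, Col6a3, Col11a1, Col14a1 and Col16a1), against 13.2% of all genes. There were 19 that rose in at least 1 comparison and fell in at least 1 other, against 48.7%. Col5a1 was lower in all 6 (2.56% of all genes), no member was higher in all 6 (2.54%), and none failed the test in all 6 (2.49%).

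**Figure D3:**
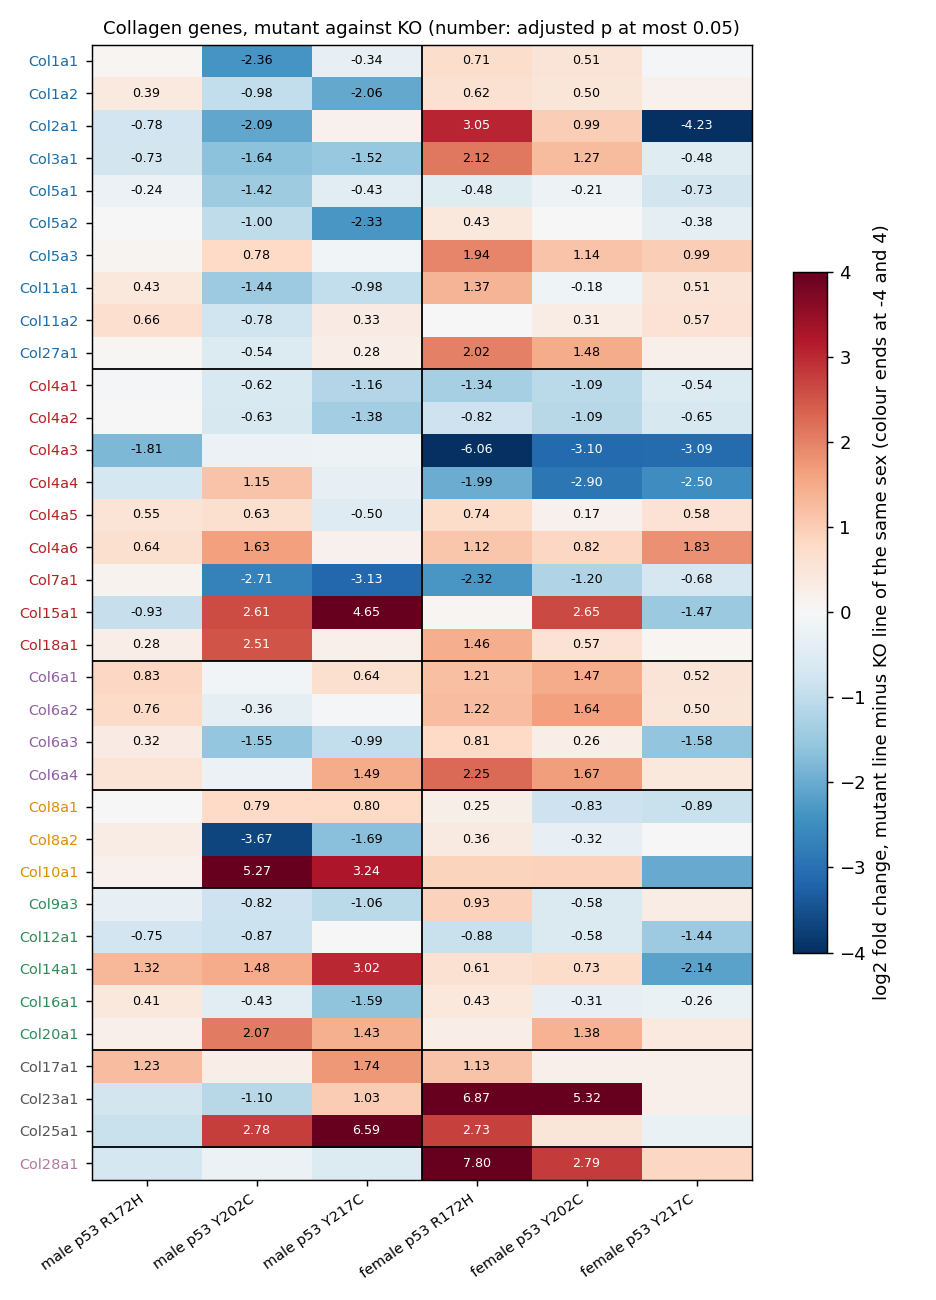
Log2 fold change of each collagen gene (rows, grouped by class) in the 6 comparisons of a mutant line with p53 KO of the same sex (columns). Colour gives the direction and size and ends at -4 and 4, and a printed value marks an adjusted p of at most 0.05. The fibrillar rows are mostly lower in male p53 Y202C (9 of 10 passed as lower, against 35.4% of all genes). They are mostly higher in female p53 R172H (8 of 10 passed as higher, against 34.4%).

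Of the 10 fibrillar genes, 6 (Col1a1, Col1a2, Col2a1, Col3a1, Col11a2 and Col27a1) fell in male and rose in female p53 Y202C, Col5a1 and Col11a1 fell in both, Col5a3 rose in both, and Col5a2 passed in the male line alone. In male p53 Y202C, 9 of the 10 fell and Col5a3 rose, with a median log2 fold change of -1.21. In female p53 Y202C, 7 rose and 2 fell (median 0.51). In female p53 R172H 8 rose and 1 fell (median 1.04). Male p53 Y217C had 2 higher and 6 lower (median -0.38). Male p53 R172H had 3 higher and 3 lower (median 0.06), and female p53 Y217C had 3 higher and 4 lower (median 0.06). Of all genes, 20.2%, 37.6% and 34.9% were higher and 20.5%, 35.4% and 35.6% lower in male p53 R172H, p53 Y202C and p53 Y217C. In the female lines 34.4%, 34.3% and 28.0% were higher and 35.3%, 34.3% and 28.7% lower.

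Type I collagen, the main fibril of skin, bone and scar, is made of Col1a1 (chr11:94936224-94953042, plus strand, on GRCm38 as are all coordinates here) and Col1a2 (chr6:4504814-4541544, plus strand). Male Col1a1 levels, as RPKM in replicates 1 to 3 of each line, were 2410.4, 2615 and 2880.2 (p53 KO), 2616, 2838 and 2894 (p53 R172H), 573, 496 and 467 (p53 Y202C), and 2038, 2142 and 2061 (p53 Y217C). Female Col1a1 levels were 1938, 2068 and 2076 (p53 KO), 3660.4, 3113 and 3180.0 (p53 R172H), 2697, 3131 and 2854 (p53 Y202C), and 2002, 1949 and 1976 (p53 Y217C) RPKM. Male p53 Y202C lay far below every other line, and p53 R172H and p53 Y202C were the highest of the female lines. On the log2 scale the change was -2.36 ± 0.08 (SE, adjusted p = 8.76e-18) in male p53 Y202C, 0.71 ± 0.08 (SE, adjusted p = 1.81e-08) in female p53 R172H and 0.51 ± 0.08 (SE, adjusted p = 2.95e-06) in female p53 Y202C.

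Col1a2, the partner chain, was at 743, 841 and 893 (p53 KO), 993, 1131 and 1121 (p53 R172H), 464, 415 and 375 (p53 Y202C), and 195, 196 and 202.1 (p53 Y217C) RPKM in males. In females, Col1a2 was at 753, 824 and 812 (p53 KO), 1341, 1153 and 1187 (p53 R172H), 1025, 1249.5 and 1099.8 (p53 Y202C), and 966, 845 and 865 (p53 Y217C) RPKM. Here the lowest line was male p53 Y217C, below male p53 Y202C, with no overlap between the 2. Its log2 fold change was -2.06 ± 0.09 (SE, adjusted p = 5.78e-16) in male p53 Y217C and -0.98 ± 0.09 (SE, adjusted p = 3.47e-10) in male p53 Y202C. The RPKM ratio of Col1a1 to Col1a2 was therefore 10.4, 10.9 and 10.2 in the 3 libraries of male p53 Y217C and 1.23, 1.2 and 1.25 in those of male p53 Y202C. Its line mean was 2.22 to 3.19 in the other 6 lines. The ratio's absolute size depends on the union exon lengths (6563 bases for Col1a1 and 12426 for Col1a2), and its differences between lines do not.

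**Figure D4:**
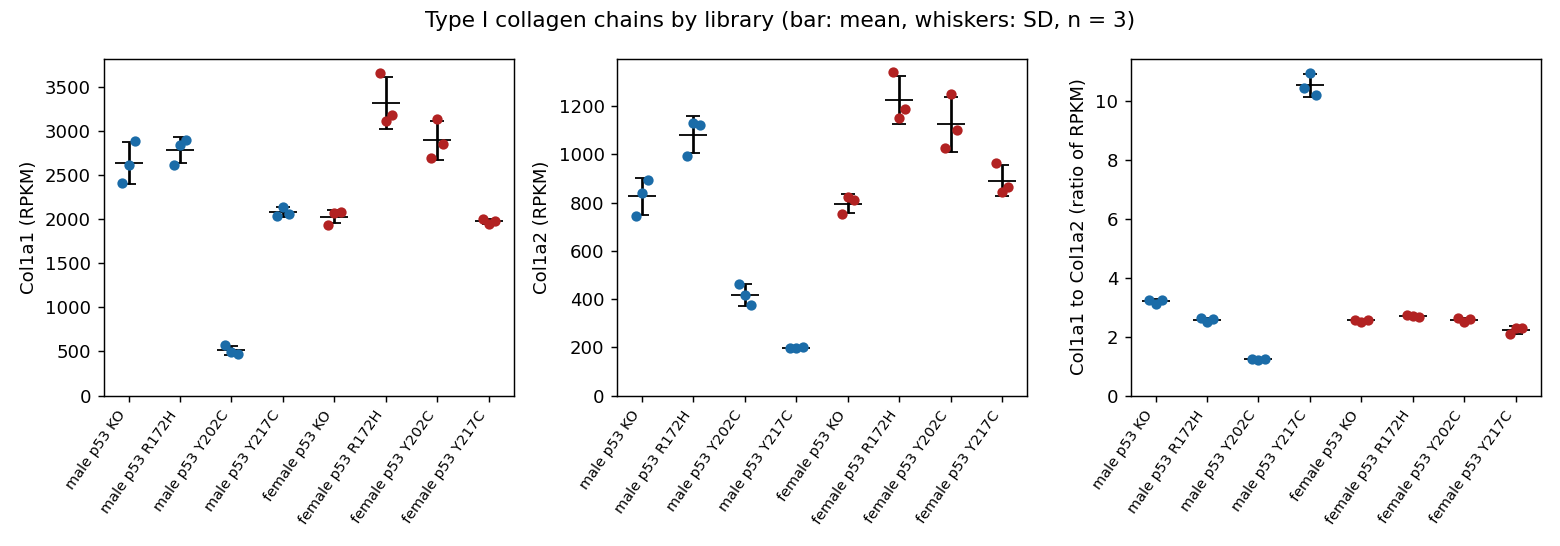
Levels of Col1a1 and Col1a2 in RPKM and their ratio in each of the 24 libraries, by line (points are libraries, horizontal bars line means and whiskers SD, n = 3). The ratio sits near 10.5 in male p53 Y217C and near 1.23 in male p53 Y202C, outside the line means of 2.22 to 3.19 of the other 6 lines.

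Col3a1, the single chain of type III collagen of vessels and soft tissue, was at 218, 246 and 266 (p53 KO), 129, 156 and 156 (p53 R172H), 80.3, 80.2 and 73.4 (p53 Y202C), and 86.3, 82.7 and 85.7 (p53 Y217C) RPKM in males. Female libraries held Col3a1 at 145, 164 and 161 (p53 KO), 753, 651 and 641 (p53 R172H), 349.5, 405 and 382 (p53 Y202C), and 115, 112 and 109.6 (p53 Y217C) RPKM. It was lower than p53 KO in every male mutant line and higher in female p53 R172H and p53 Y202C. The edgeR log2 fold change was -0.73, -1.64 and -1.52 in male p53 R172H, p53 Y202C and p53 Y217C, and 2.12 ± 0.08 (SE, adjusted p = 1.37e-16), 1.27 and -0.48 in the female lines in the same order. Col3a1 and Col5a2 are neighbours on chromosome 1, and Col5a2 did not pass the test in male p53 R172H (-0.0027) or female p53 Y202C (-0.03), where Col3a1 did.

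Type V collagen sets the width of type I fibrils and is made of Col5a1, Col5a2 and Col5a3. Col5a1 was at 317, 329.9 and 356 (p53 KO), 275, 283 and 292 (p53 R172H), 139, 121 and 115 (p53 Y202C), and 245, 253 and 247 (p53 Y217C) RPKM in males. Female Col5a1 libraries were at 340.1, 354 and 345 (p53 KO), 255, 242 and 247 (p53 R172H), 284, 314 and 298 (p53 Y202C), and 206, 207 and 213 (p53 Y217C) RPKM. Every mutant line was lower than its p53 KO line, with log2 fold changes from -0.21 in female p53 Y202C to -1.42 ± 0.06 (SE, adjusted p = 4.55e-16) in male p53 Y202C.

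Col5a2 was at 211, 225 and 238 (p53 KO), 216.9, 229 and 228 (p53 R172H), 123, 110.3 and 104 (p53 Y202C), and 43.2, 46 and 45.5 (p53 Y217C) RPKM in males. The female values of Col5a2 were 188, 192 and 187 (p53 KO), 277, 246 and 242 (p53 R172H), 180.3, 193 and 183 (p53 Y202C), and 141, 147 and 147 (p53 Y217C) RPKM. In male p53 Y217C the log2 fold change was -2.33 ± 0.06 (SE, adjusted p = 1.01e-19) for Col5a2 and -0.43 for Col5a1. The RPKM ratio of Col5a1 to Col5a2 was 5.53 ± 0.119 (SD, n = 3) in male p53 Y217C and had line means of 0.975 to 1.83 in the other 7 lines, so both fibrillar pairs were most unequal in the same line.

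Col5a3, another type V chain, was at 3.16, 3.88 and 4.17 (p53 KO), 3.59, 4.62 and 4.02 (p53 R172H), 7.17, 6.53 and 5.57 (p53 Y202C), and 3.69, 3.23 and 3.49 (p53 Y217C) RPKM in males. Females had Col5a3 at 2.35, 2.45 and 2.68 (p53 KO), 9.59, 9.8 and 9.32 (p53 R172H), 5.05, 5.74 and 5.72 (p53 Y202C), and 5.26, 4.91 and 4.64 (p53 Y217C) RPKM. Female p53 KO was the lowest line. The fitted change on the log2 scale was 1.94 ± 0.10 (SE, adjusted p = 3.39e-14) in female p53 R172H, 1.14 and 0.99 in the female p53 Y202C and p53 Y217C lines, and 0.78 in male p53 Y202C, where it was the 1 fibrillar gene that rose.

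Col11a1, a type XI chain that joins type V chains in non-cartilage tissue, was at 23, 25.2 and 26.7 (p53 KO), 32.2, 35.2 and 33.4 (p53 R172H), 9.71, 8.68 and 9.18 (p53 Y202C), and 12.6, 12.8 and 12.7 (p53 Y217C) RPKM in males. Female Col11a1 values were 17.8, 17.7 and 17.4 (p53 KO), 48.6, 45.9 and 42.1 (p53 R172H), 15.8, 14.7 and 16.2 (p53 Y202C), and 25.2, 25.3 and 24.6 (p53 Y217C) RPKM. Female p53 R172H was the highest line (1.37 ± 0.06 SE, adjusted p = 6.04e-16) and male p53 Y202C the lowest (-1.44 ± 0.06 SE, adjusted p = 2.21e-16). The small fall in female p53 Y202C (-0.18 ± 0.06 SE, adjusted p = 0.0088) lost its call without female p53 Y202C replicate 2, at -0.14, and with library totals in place of TMM, at -0.11.

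Col2a1, the chain of cartilage type II collagen, had the widest range of the fibrillar genes. It was at 11.2, 12.1 and 13.6 (p53 KO), 6.77, 7.35 and 7.35 (p53 R172H), 3.37, 2.66 and 2.62 (p53 Y202C), and 13, 15.6 and 13.3 (p53 Y217C) RPKM in males. Female levels of Col2a1 were 4.48, 5.08 and 5.22 (p53 KO), 41.9, 39.2 and 41.5 (p53 R172H), 9.22, 10.9 and 9.14 (p53 Y202C), and 0.231, 0.3 and 0.259 (p53 Y217C) RPKM. Against p53 KO the log2 fold change was 3.05 ± 0.10 (SE, adjusted p = 6.85e-18) in female p53 R172H and -4.23 ± 0.12 (SE, adjusted p = 3.10e-18) in female p53 Y217C, while it fell by 2.09 in male p53 Y202C and by 0.78 in male p53 R172H. Female p53 R172H and female p53 Y217C were the highest and the lowest of all 8 lines. Of the remaining fibrillar genes, Col27a1 had line means of 0.705 to 2.87 RPKM and rose by 2.02 in female p53 R172H and 1.48 in female p53 Y202C on the log2 scale, and Col11a2 ran from 0.814 to 2.22 RPKM.

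In the basement membrane class Col4a1 and Col4a2 fell in 5 of 6 comparisons, while Col4a5 and Col4a6 each rose in 5 of 6. Its 9 genes had 3 higher and 2 lower in male p53 R172H, 5 higher and 3 lower in male p53 Y202C and 1 higher and 4 lower in male p53 Y217C. The female counts were 3 higher and 5 lower with p53 R172H and 4 higher and 5 lower with p53 Y202C. With p53 Y217C they were 2 higher and 6 lower. Of all genes, 40.7%, 73.0% and 70.5% passed in either direction in the male and 69.7%, 68.6% and 56.7% in the female comparisons. Col4a1 and Col4a2 form the ubiquitous type IV network and are transcribed in opposite directions from a shared region of chromosome 8.

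Col4a1 was at 521, 497 and 523 (p53 KO), 499, 472 and 496 (p53 R172H), 360.4, 331 and 309 (p53 Y202C), and 227, 225 and 236 (p53 Y217C) RPKM in males. In female lines, Col4a1 was at 583, 588 and 564 (p53 KO), 238, 223 and 226 (p53 R172H), 261, 290.5 and 265 (p53 Y202C), and 375, 409 and 408 (p53 Y217C) RPKM. It was lower in every mutant line than in p53 KO except male p53 R172H, whose log2 fold change of -0.07 did not pass. The 5 falls ran from -0.54 ± 0.06 (SE, adjusted p = 1.83e-08) in female p53 Y217C to -1.34 ± 0.06 (SE, adjusted p = 5.64e-16) in female p53 R172H.

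Col4a2 was at 336, 330.3 and 343 (p53 KO), 339, 322 and 338 (p53 R172H), 232, 216 and 205 (p53 Y202C), and 128, 126 and 134 (p53 Y217C) RPKM in males. Female Col4a2 levels were 408, 399 and 391 (p53 KO), 238, 227 and 215 (p53 R172H), 181, 195 and 185 (p53 Y202C), and 243, 263 and 259 (p53 Y217C) RPKM. The same 5 lines were lower than p53 KO, with log2 fold changes from -0.63 in male p53 Y202C to -1.38 ± 0.05 (SE, adjusted p = 6.16e-17) in male p53 Y217C. The Col4a1 to Col4a2 ratio of RPKM values had line means of 1.45 to 1.77 in 7 lines and was 1.01 ± 0.0363 (SD, n = 3) in female p53 R172H, where Col4a1 fell by more than Col4a2. The 2 annotated genes overlap at chr8:11312805-11312826. Without a stated strand of counting, reads in that stretch cannot be assigned with certainty.

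Col4a5 and Col4a6, a head-to-head pair on the X chromosome, encode chains of muscle, kidney and skin basement membranes. Col4a5 was at 26.1, 28.2 and 30.5 (p53 KO), 37.6, 44 and 42.3 (p53 R172H), 46.4, 41.8 and 43.6 (p53 Y202C), and 19.8, 19.6 and 20.4 (p53 Y217C) RPKM in males. Female Col4a5 values were 25.2, 27.5 and 26.7 (p53 KO), 47.3, 43.7 and 41.9 (p53 R172H), 27.8, 30.4 and 31.3 (p53 Y202C), and 41.7, 38.5 and 38.4 (p53 Y217C) RPKM. It was higher in male p53 R172H (0.55), male p53 Y202C (0.63), female p53 R172H (0.74 ± 0.07 SE, adjusted p = 5.93e-10) and female p53 Y217C (0.58), given as log2 fold changes. It was lower in male p53 Y217C (-0.50 ± 0.07 SE, adjusted p = 3.48e-07). The female p53 Y202C value of 0.17 lost its call when any of 3 libraries was left out: female p53 KO replicate 1 (0.14), p53 Y202C replicate 2 (0.16) or p53 Y202C replicate 3 (0.16).

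Col4a6 was at 3.68, 3.97 and 4.46 (p53 KO), 5.69, 6.5 and 6.71 (p53 R172H), 13.2, 12.5 and 11.7 (p53 Y202C), and 4.77, 4.28 and 4.56 (p53 Y217C) RPKM in males. Females held Col4a6 at 2.33, 2.49 and 2.67 (p53 KO), 5.8, 5.28 and 5.21 (p53 R172H), 3.86, 4.68 and 4.62 (p53 Y202C), and 9.45, 8.46 and 8.7 (p53 Y217C) RPKM. Male p53 Y202C was the highest line and female p53 KO the lowest. The log2 fold change was 1.83 ± 0.08 (SE, adjusted p = 1.53e-14) in female p53 Y217C and 1.63 ± 0.08 (SE, adjusted p = 1.47e-14) in male p53 Y202C. The ratio of Col4a5 to Col4a6 in RPKM ran from 3.53 ± 0.186 in male p53 Y202C to 10.6 ± 0.543 in female p53 KO (SD, n = 3), so the pair did not move in proportion.

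Col4a3 and Col4a4, chains of the kidney glomerular basement membrane, were among the least abundant members. Read counts of Col4a3 were 20, 32 and 51 (p53 KO), 10, 8 and 4 (p53 R172H), 21, 14 and 25 (p53 Y202C), and 34, 18 and 8 (p53 Y217C) in males. Female counts of Col4a3 were 124, 87 and 116 (p53 KO), 1, 4 and 0 (p53 R172H), 12, 2 and 12 (p53 Y202C), and 14, 8 and 9 (p53 Y217C). On the log2 scale the change was -6.06 ± 0.60 (SE, adjusted p = 3.58e-09) in female p53 R172H, -3.10 and -3.09 in the female p53 Y202C and p53 Y217C lines, and -1.81 ± 0.52 (SE, adjusted p = 0.00792) in male p53 R172H. Col4a3 met the CPM filter in female p53 KO alone, so its falls in the female lines were partly fixed in advance. The value of -6.06 rests on counts of 1, 4 and 0. Female Col4a4 counts were 176, 117 and 158 (p53 KO), 30, 41 and 57 (p53 R172H), 19, 6 and 16 (p53 Y202C), and 20, 15 and 29 (p53 Y217C). In males, Col4a4 counts were 51, 68 and 107 (p53 KO), 50, 29 and 27 (p53 R172H), 142, 107 and 100 (p53 Y202C), and 33, 45 and 44 (p53 Y217C). It fell in the 3 female mutant lines (-1.99, -2.90 ± 0.32 SE, adjusted p = 3.13e-08 and -2.50) and rose in male p53 Y202C (1.15). Col4a4 met the CPM filter in female p53 KO and male p53 Y202C only, so these tests too were partly fixed in advance.

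Types XV and XVIII are collagens of the basement membrane zone, and fragments of both inhibit vessel growth. Col18a1 was at 8.35, 10.3 and 11 (p53 KO), 9.76, 13.2 and 13 (p53 R172H), 56.5, 59.9 and 53.3 (p53 Y202C), and 11.4, 10.8 and 11.8 (p53 Y217C) RPKM in males. Female levels were 6.6, 6.85 and 7.23 (p53 KO), 20.9, 18.2 and 17.9 (p53 R172H), 9.52, 10.9 and 10.2 (p53 Y202C), and 8.43, 6.63 and 6.95 (p53 Y217C) RPKM for Col18a1. Male p53 Y202C stood above all other lines (2.51 ± 0.11 SE, adjusted p = 9.05e-16), followed by female p53 R172H (1.46 ± 0.11 SE, adjusted p = 1.91e-11). Slc19a1, which overlaps Col18a1 on the opposite strand, changed by -0.39 in male p53 Y202C and -0.66 in female p53 R172H. The male p53 R172H value of 0.28 lost its call when male p53 KO replicate 1 (0.17) or 2 (0.31) or male p53 R172H replicate 2 (0.20) or 3 (0.21) was left out. It also lost it with library totals in place of TMM (0.25) and when only the lines compared were fitted (0.27).

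Col15a1 was at 0.139, 0.0989 and 0.175 (p53 KO), 0.09, 0.0767 and 0.0461 (p53 R172H), 0.924, 0.823 and 0.766 (p53 Y202C), and 3.8, 3.15 and 3.48 (p53 Y217C) RPKM in males. Female Col15a1 libraries were at 0.331, 0.365 and 0.329 (p53 KO), 0.461, 0.344 and 0.286 (p53 R172H), 1.94, 2.03 and 2.45 (p53 Y202C), and 0.154, 0.116 and 0.0954 (p53 Y217C) RPKM. Male p53 Y217C was the highest line, and both p53 Y202C lines were higher than their p53 KO lines. Its log2 fold change was 4.65 ± 0.20 (SE, adjusted p = 7.56e-16) in male p53 Y217C, 2.61 ± 0.20 (SE, adjusted p = 2.70e-11) in male p53 Y202C, 2.65 ± 0.19 (SE, adjusted p = 9.85e-12) in female p53 Y202C and -1.47 ± 0.22 (SE, adjusted p = 4.07e-06) in female p53 Y217C.

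Col7a1, which forms the anchoring fibrils under epithelia, was at 62.1, 57.1 and 60.5 (p53 KO), 69.4, 64.6 and 63 (p53 R172H), 10.4, 8.82 and 8.29 (p53 Y202C), and 6.76, 6.84 and 6.88 (p53 Y217C) RPKM in males. Females had Col7a1 at 51, 48.6 and 49.3 (p53 KO), 9.74, 9.6 and 10.4 (p53 R172H), 22.1, 22.5 and 20.1 (p53 Y202C), and 29, 31.3 and 32.8 (p53 Y217C) RPKM. It fell in 5 of the 6 comparisons, most in male p53 Y217C (-3.13 ± 0.07 SE, adjusted p = 5.72e-21), male p53 Y202C (-2.71 ± 0.07 SE, adjusted p = 6.70e-20) and female p53 R172H (-2.32 ± 0.07 SE, adjusted p = 9.20e-19), and the exception was male p53 R172H (0.13).

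Type VI collagen forms microfibrils that link cells to the surrounding matrix, and Col6a1, Col6a2 and Col6a3 are its standard chains. All 4 genes of the type rose in female p53 R172H and in female p53 Y202C. Male p53 R172H had 3 higher and 0 lower and male p53 Y202C 0 higher and 2 lower. The counts were 2 higher and 1 lower in male p53 Y217C and 2 higher and 1 lower in female p53 Y217C. The shares of all genes that passed were 40.7%, 73.0% and 70.5% in male p53 R172H, p53 Y202C and p53 Y217C. They were 69.7%, 68.6% and 56.7% in the female lines.

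Col6a1 was at 145, 170.3 and 177 (p53 KO), 266, 313 and 296 (p53 R172H), 160.1, 158 and 141 (p53 Y202C), and 261, 233 and 274 (p53 Y217C) RPKM in males. Female Col6a1 values were 149, 163 and 170.4 (p53 KO), 392, 356 and 370.1 (p53 R172H), 408, 481 and 452 (p53 Y202C), and 245, 218 and 226 (p53 Y217C) RPKM. Female p53 Y202C was the highest line (1.47 ± 0.08 SE, adjusted p = 2.29e-13), and p53 R172H was higher than p53 KO in both sexes (0.83 in males and 1.21 in females on the log2 scale). Col6a2, which neighbours Col6a1 on chromosome 10, was at 47.2, 54.4 and 56.6 (p53 KO), 81.1, 95.8 and 91.8 (p53 R172H), 41.4, 42.6 and 39 (p53 Y202C), and 51.8, 46.4 and 54.9 (p53 Y217C) RPKM in males. Female Col6a2 values were 48.3, 53.4 and 54.1 (p53 KO), 126, 119.7 and 118 (p53 R172H), 150.2, 170.2 and 164 (p53 Y202C), and 76.7, 71.1 and 72 (p53 Y217C) RPKM. It rose by 1.64 ± 0.08 (SE, adjusted p = 4.94e-15) in female p53 Y202C and fell in male p53 Y202C (-0.36). The ratio of the pair in RPKM was 5.02 ± 0.0231 (SD, n = 3) in male p53 Y217C and had line means of 2.76 to 3.73 in the other 7, so male p53 Y217C was the outermost line for this pair too.

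Col6a3, the longest of the standard chains, was at 48, 48.8 and 53.1 (p53 KO), 62.6, 62.9 and 61.2 (p53 R172H), 18.2, 16.5 and 16.6 (p53 Y202C), and 24.7, 24.5 and 26.2 (p53 Y217C) RPKM in males. In females, Col6a3 was at 52.5, 54.6 and 52.8 (p53 KO), 94.8, 89.2 and 96.6 (p53 R172H), 61.9, 63.6 and 65.7 (p53 Y202C), and 17.6, 17.7 and 18.3 (p53 Y217C) RPKM. It fell in female p53 Y217C (-1.58 ± 0.05 SE, adjusted p = 1.48e-17), where Col6a1 and Col6a2 rose (0.52 and 0.50). It also fell in male p53 Y202C (-1.55 ± 0.05 SE, adjusted p = 3.67e-18) and male p53 Y217C (-0.99) and rose in female p53 R172H (0.81). Col6a4 was the least abundant, with line means of 0.0252 to 0.14 RPKM.

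The short-chain network genes Col8a1 and Col8a2, chains of type VIII collagen of vessel walls and the cornea, did not move together. Col8a1 was at 40.3, 42.1 and 45.8 (p53 KO), 40.6, 41.4 and 45.1 (p53 R172H), 72.3, 71.4 and 78.1 (p53 Y202C), and 76.7, 70.6 and 75.1 (p53 Y217C) RPKM in males. Female Col8a1 values were 70.4, 75.6 and 70.2 (p53 KO), 91.4, 86.5 and 78.3 (p53 R172H), 42, 37.3 and 42.6 (p53 Y202C), and 36.2, 40.1 and 40.4 (p53 Y217C) RPKM. It was higher in male p53 Y202C (0.79 ± 0.07 SE, adjusted p = 1.89e-10) and male p53 Y217C (0.80 ± 0.07 SE, adjusted p = 2.08e-10) and lower in the female lines with the same mutations (-0.83 ± 0.07 SE, adjusted p = 1.59e-10 and -0.89 ± 0.07 SE, adjusted p = 1.03e-10). Col8a2 was at 18, 24.5 and 27.4 (p53 KO), 22.5, 32.1 and 31.5 (p53 R172H), 1.93, 1.66 and 1.88 (p53 Y202C), and 7.6, 6.94 and 7.2 (p53 Y217C) RPKM in males. Female Col8a2 values were 13.7, 15.1 and 15 (p53 KO), 22.8, 17.4 and 16.2 (p53 R172H), 10.5, 12.8 and 11.7 (p53 Y202C), and 16.9, 13.1 and 14.7 (p53 Y217C) RPKM. Its log2 fold changes were -3.67 ± 0.16 (SE, adjusted p = 9.08e-16) in male p53 Y202C and -1.69 ± 0.14 (SE, adjusted p = 2.72e-10) in male p53 Y217C, the male lines where Col8a1 was higher. Its female log2 fold changes lay between -0.32 with p53 Y202C and 0.36 with p53 R172H. The first lost its call with DESeq2, with library totals, with TMM factors from the other genes, among genes of at least 5 CPM, with the replicate number as a block, and without female p53 KO replicate 2 or 3 or p53 Y202C replicate 1 or 3 (-0.30 to -0.26). The second lost it without female p53 KO replicate 1 (0.32) or p53 R172H replicate 1 (0.20).

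Col10a1, the type X chain of hypertrophic cartilage, gave read counts of 0, 1 and 12 (p53 KO), 4, 3 and 4 (p53 R172H), 147, 119 and 93 (p53 Y202C), and 22, 27 and 36 (p53 Y217C) in males. Female counts of Col10a1 were 2, 4 and 10 (p53 KO), 14, 14 and 5 (p53 R172H), 10, 4 and 7 (p53 Y202C), and 3, 0 and 0 (p53 Y217C). The male p53 Y202C and p53 Y217C libraries lay above all others, of which 14 counts was the highest. The edgeR log2 fold change was 5.27 ± 0.56 (SE, adjusted p = 8.55e-09) in male p53 Y202C and 3.24 ± 0.63 (SE, adjusted p = 7.11e-05) in male p53 Y217C. Col10a1 met the CPM filter in male p53 Y202C alone, so its test in that line was partly fixed in advance. Nt5dc1, within which Col10a1 lies on the opposite strand, differed by 0.22 ± 0.13 (SE, adjusted p = 0.128) in male p53 Y202C.

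FACIT collagens, whose interrupted helices sit on the surface of fibrils, had 2 higher and 1 lower of 5 in male p53 R172H, 2 higher and 3 lower in male p53 Y202C and 2 higher and 2 lower in male p53 Y217C. In females they had 3 higher and 1 lower with p53 R172H and 2 higher and 3 lower with p53 Y202C. With p53 Y217C they had 0 higher and 3 lower. The shares of all genes that passed were 40.7%, 73.0% and 70.5% in the male and 69.7%, 68.6% and 56.7% in the female comparisons. Col12a1, found along type I fibrils of tendon and other tissues under load, was at 56.8, 60.5 and 67 (p53 KO), 34.7, 38.7 and 36 (p53 R172H), 35.2, 30.8 and 35.1 (p53 Y202C), and 57.6, 61.5 and 65.1 (p53 Y217C) RPKM in males. Female Col12a1 levels were 72.2, 78.9 and 80 (p53 KO), 43.3, 40 and 42.1 (p53 R172H), 51.4, 44.4 and 58.8 (p53 Y202C), and 28.1, 29.1 and 27.9 (p53 Y217C) RPKM. It fell in 5 of 6 comparisons, from -0.58 in female p53 Y202C to -1.44 ± 0.08 (SE, adjusted p = 6.11e-13) in female p53 Y217C, and male p53 Y217C overlapped male p53 KO (-0.00069).

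Col14a1, a close relative of Col12a1, was at 0.0724, 0.161 and 0.154 (p53 KO), 0.239, 0.426 and 0.332 (p53 R172H), 0.35, 0.375 and 0.387 (p53 Y202C), and 1.23, 0.871 and 1.13 (p53 Y217C) RPKM in males. Females had Col14a1 at 0.323, 0.778 and 0.666 (p53 KO), 1.13, 0.807 and 0.764 (p53 R172H), 0.812, 1.05 and 1.07 (p53 Y202C), and 0.136, 0.0978 and 0.169 (p53 Y217C) RPKM. It rose in all 3 male mutant lines (1.32, 1.48 and 3.02 ± 0.29 SE, adjusted p = 2.38e-09) and fell in female p53 Y217C (-2.14 ± 0.30 SE, adjusted p = 2.26e-06). The rises of 0.61 in female p53 R172H and 0.73 in female p53 Y202C lost their calls without female p53 KO replicate 1 (0.32 and 0.44), and the first also without female p53 R172H replicate 1 (0.42). Of the other FACIT genes, Col16a1 was at 16.6 to 68.9 RPKM and lowest in male p53 Y217C (-1.59), and Col20a1 and Col9a3 had line means of at most 1.21 RPKM. Tcfl5, which overlaps Col9a3 on the opposite strand, fell in all 6 comparisons, while Col9a3 changed by -1.06 to 0.93.

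Col23a1 and Col25a1, of the transmembrane class, and Col28a1 were near 0 in most lines and high in 1 or 2. The filter kept these genes through their high lines, so their tests against a low line were partly fixed in advance. Col25a1, known from neurons and as the precursor of a component of amyloid plaques, gave read counts of 12, 2 and 10 (p53 KO), 3, 1 and 6 (p53 R172H), 44, 49 and 27 (p53 Y202C), and 659, 454 and 535 (p53 Y217C) in males. Female counts of Col25a1 were 1, 0 and 2 (p53 KO), 10, 4 and 11 (p53 R172H), 2, 0 and 1 (p53 Y202C), and 0, 2 and 0 (p53 Y217C). Male p53 Y217C stood alone, and the highest library of any other line was at 49 counts in male p53 Y202C. The fitted change on the log2 scale was 6.59 ± 0.42 (SE, adjusted p = 9.21e-13) in male p53 Y217C and 2.78 ± 0.46 (SE, adjusted p = 8.63e-06) in male p53 Y202C. In female p53 R172H the counts gave at least 2.4-fold more than the floor of 3 counts per library in female p53 KO.

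Col23a1, a membrane collagen that can be shed from cells, was at 0.103, 0.0721 and 0.0465 (p53 KO), 0.0473, 0.0447 and 0.0355 (p53 R172H), 0.0244, 0.0449 and 0.0319 (p53 Y202C), and 0.124, 0.162 and 0.149 (p53 Y217C) RPKM in males. Female Col23a1 levels were 0.0702, 0.0469 and 0.0421 (p53 KO), 7.24, 6.37 and 5.19 (p53 R172H), 1.96, 2.19 and 2.26 (p53 Y202C), and 0.0901, 0.0443 and 0.0489 (p53 Y217C) RPKM. The 6 libraries of female p53 R172H and p53 Y202C lay far above the other 18, of which 0.162 RPKM was the highest. Against p53 KO the log2 fold change was 6.87 ± 0.23 (SE, adjusted p = 6.86e-18) in female p53 R172H and 5.32 ± 0.23 (SE, adjusted p = 1.04e-15) in female p53 Y202C.

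Col28a1, a collagen with a short interrupted helix that is known from peripheral nerve, was at 0.0246, 0.0697 and 0.112 (p53 KO), 0.0435, 0.0575 and 0.0338 (p53 R172H), 0.0592, 0.0663 and 0.0622 (p53 Y202C), and 0.0483, 0.0475 and 0.0546 (p53 Y217C) RPKM in males. Female Col28a1 levels were 0.028, 0.034 and 0.00985 (p53 KO), 5.52, 5.18 and 4.92 (p53 R172H), 0.186, 0.139 and 0.162 (p53 Y202C), and 0.0335, 0.0337 and 0.0603 (p53 Y217C) RPKM. The 3 libraries of female p53 R172H were far above the other 21, of which 0.186 RPKM was the highest (7.80 ± 0.31 SE, adjusted p = 1.78e-16 against p53 KO), and female p53 Y202C was also higher than p53 KO (2.79 ± 0.37 SE, adjusted p = 4.62e-07). Col17a1, the hemidesmosome collagen of skin, was at most 0.204 RPKM in any library, with 0.0603, 0.0397 and 0.057 (p53 KO), 0.127, 0.143 and 0.0954 (p53 R172H), 0.0266, 0.0698 and 0.0964 (p53 Y202C), and 0.166, 0.204 and 0.149 (p53 Y217C) RPKM in males. Female Col17a1 values were 0.0653, 0.0533 and 0.109 (p53 KO), 0.201, 0.114 and 0.188 (p53 R172H), 0.0745, 0.105 and 0.083 (p53 Y202C), and 0.0586, 0.0867 and 0.12 (p53 Y217C) RPKM. For Col17a1 the log2 fold change was 1.23 ± 0.36 (SE, adjusted p = 0.00876) in male p53 R172H, 1.74 in male p53 Y217C and 1.13 in female p53 R172H. Col17a1 met the CPM filter in male p53 Y217C and female p53 R172H only, so its tests in those lines were partly fixed in advance.

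**Figure D5:**
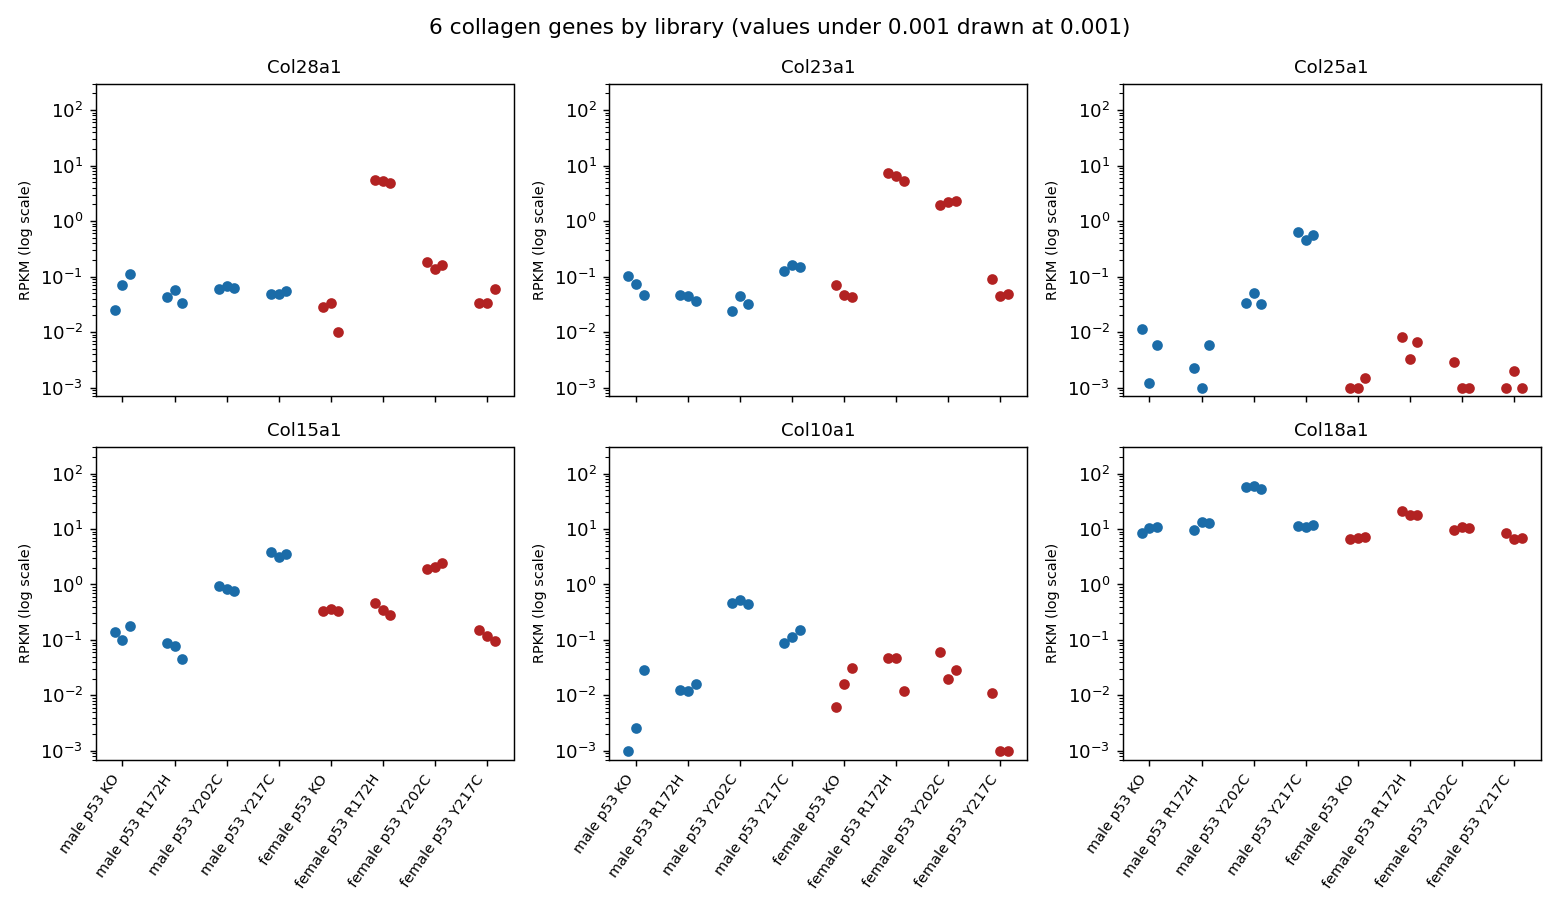
Level of 6 collagen genes in each of the 24 libraries, in RPKM on a log axis, with libraries grouped by line and values under 0.001 drawn at 0.001. Col23a1 and Col28a1 peak in female p53 R172H, Col25a1 and Col15a1 in male p53 Y217C, and Col10a1 and Col18a1 in male p53 Y202C.

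Promoter windows of Col23a1, Col28a1, Col25a1 and Col15a1 are shown to give the sequence in front of their starts, and that of Col10a1 is not shown. Each is the 250 bases before the RefSeq transcription start on GRCm38.p6, read 5′ to 3′ on the strand of the gene, with CG dinucleotides in capitals. The Col25a1 window lies inside the gene as GENCODE M21 annotates it, which begins at chr3:130131501. The windows are Col23a1 (chr11:51289670-51289919, plus strand), Col28a1 (chr6:8192618-8192867, minus strand), Col25a1 (chr3:130180595-130180844, plus strand) and Col15a1 (chr4:47207762-47208011, plus strand), and none overlaps an annotated exon.
Col23a1: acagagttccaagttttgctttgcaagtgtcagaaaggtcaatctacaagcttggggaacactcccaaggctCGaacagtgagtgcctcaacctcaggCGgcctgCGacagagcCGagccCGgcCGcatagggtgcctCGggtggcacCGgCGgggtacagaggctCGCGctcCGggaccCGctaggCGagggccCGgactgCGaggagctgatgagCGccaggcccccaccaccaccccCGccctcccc
Col28a1: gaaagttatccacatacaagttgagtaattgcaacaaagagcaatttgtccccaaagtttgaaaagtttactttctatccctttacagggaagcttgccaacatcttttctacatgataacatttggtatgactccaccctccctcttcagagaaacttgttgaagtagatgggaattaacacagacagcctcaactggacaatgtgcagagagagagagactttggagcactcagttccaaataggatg
Col25a1: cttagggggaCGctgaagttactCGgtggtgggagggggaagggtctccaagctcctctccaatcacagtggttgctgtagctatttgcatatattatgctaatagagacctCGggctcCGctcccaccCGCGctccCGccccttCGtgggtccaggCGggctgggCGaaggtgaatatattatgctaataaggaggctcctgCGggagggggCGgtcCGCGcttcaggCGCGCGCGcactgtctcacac
Col15a1: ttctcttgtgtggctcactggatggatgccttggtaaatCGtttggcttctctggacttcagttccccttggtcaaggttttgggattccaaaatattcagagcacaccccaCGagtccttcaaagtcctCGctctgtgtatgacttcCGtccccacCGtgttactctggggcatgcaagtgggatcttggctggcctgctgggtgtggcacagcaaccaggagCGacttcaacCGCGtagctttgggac

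Col23a1 and Col25a1 had 18 CG dinucleotides each, Col15a1 had 8 and Col28a1 had 0, where the median of 32851 such windows of all genes was 6. Over the collagen genes, 30 windows of 28 genes could be matched, and their CG counts ran from 0 to 31. On either strand, TATAAA was in 4 of the 30 windows (12.37% of all windows), CCAAT in 12 (33.85%), GGGCGG in 19 (32.74%) and CACCTG in 3 (17.22%). The 2 genes that were high in female p53 R172H thus had promoter windows with unlike CG counts. A motif match is a description of the letters only.

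Male lines were compared with female lines of the same genotype. The change from p53 KO with each mutation was then compared between the sexes as an interaction. In p53 KO, 22 of 35 collagen genes differed (14 higher and 8 lower in males) against 31.1% of all genes (17.2% higher and 13.8% lower). In p53 R172H, 26 of 35 differed (8 higher and 18 lower) against 62.0% (32.4% and 29.7%), in p53 Y202C 32 of 35 (12 higher and 20 lower) against 75.3% (37.7% and 37.7%), and in p53 Y217C 30 of 35 (16 higher and 14 lower) against 68.0% (33.4% and 34.6%). The medians of the male to female log2 fold changes were 0.10, -0.41, -0.76 and 0.25 in that order.

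Between the p53 KO lines, Col14a1 (-2.15 ± 0.29 SE, adjusted p = 3.21e-06) and Col4a3 (-1.94 ± 0.38 SE, adjusted p = 3.59e-04) were lower in males and Col2a1 (1.32 ± 0.10 SE, adjusted p = 1.24e-10) was higher. Col1a1 was 2635 ± 236 RPKM in male and 2027 ± 77.2 RPKM (SD, n = 3) in female p53 KO, a log2 difference of 0.38. In p53 R172H, Col7a1 (2.73 ± 0.07 SE, adjusted p = 5.09e-20) and Col4a1 (1.10 ± 0.06 SE, adjusted p = 2.64e-14) were higher in males, and Col23a1 (-7.18 ± 0.24 SE, adjusted p = 6.13e-18) and Col28a1 (-6.85 ± 0.29 SE, adjusted p = 5.52e-16) were lower. In p53 Y202C, differences past the threshold included higher Col10a1 (3.78 ± 0.52 SE, adjusted p = 5.83e-07) and Col18a1 (2.47) in males. Col23a1 (-6.01 ± 0.25 SE, adjusted p = 1.75e-16), Col8a2 (-2.68) and Col1a1 (-2.50 ± 0.08 SE, adjusted p = 1.68e-18) were lower there. Col25a1 was at least 10.8-fold higher in males. In p53 Y217C, Col2a1 (5.73 ± 0.13 SE, adjusted p = 1.32e-21) and Col15a1 (4.82) were higher in males. Col7a1 (-2.18) and Col1a2 (-2.17 ± 0.09 SE, adjusted p = 1.80e-16) were lower. Col25a1 was at least 181-fold higher in the male line. The tests of Col4a3, Col10a1, Col23a1 and Col28a1 given here, and that of Col25a1 in p53 Y217C, involve the high lines through which these genes entered the table. They were partly fixed in advance.

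The change from p53 KO differed between the male and the female line for 26 of 35 collagen genes with p53 R172H. It did so for 58.0% of all genes, 29.7% with a positive and 28.3% with a negative value. The counts were 28 of 35 with p53 Y202C (68.0%, 34.5% and 33.5%) and 30 of 35 with p53 Y217C (54.8%, 27.5% and 27.4%). The interaction is the male minus the female log2 fold change. For p53 R172H it was negative in 19 of the genes that passed, and Col2a1 (-3.83 ± 0.14 SE, adjusted p = 6.17e-17) and Col3a1 (-2.85 ± 0.12 SE, adjusted p = 5.24e-16) fell in males and rose in females. For p53 Y202C it was negative in all 10 fibrillar genes, from -0.36 in Col5a3 to -3.07 ± 0.14 (SE, adjusted p = 2.05e-15) in Col2a1, and Col1a1 had -2.88 ± 0.11 (SE, adjusted p = 1.13e-16). The Col5a3 value lost its call when any 1 of 6 libraries was left out (female p53 KO replicate 1 or 2, female p53 Y202C replicate 2, male p53 KO replicate 2 or 3, or male p53 Y202C replicate 3), with values of -0.35 to -0.27. The changes from p53 KO with p53 Y202C had opposite signs, both past the threshold, for 11 genes, against 23.1% of all genes. Among them, Col1a1, Col1a2, Col3a1, Col6a2, Col6a3 and Col23a1 fell in males and rose in females, and Col8a1 and Col4a4 did the reverse. Col4a4 and Col23a1 entered the table through high lines that are part of this comparison, so their tests were partly fixed in advance. The male call of Col23a1 (-1.10) was lost with limma voomWithQualityWeights (-0.81).

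For p53 Y217C, 5 genes moved in opposite directions (12.2% of all genes), and Col15a1 (6.12 ± 0.29 SE, adjusted p = 9.68e-15) and Col14a1 (5.16 ± 0.42 SE, adjusted p = 2.02e-10) had the largest interactions among them, followed by Col8a1 (1.68), Col11a1 (-1.48) and Col4a5 (-1.08). The male p53 KO and female p53 KO levels also enter each interaction, and Col2a1, which differed between them, gave 4.41 ± 0.16 (SE, adjusted p = 3.78e-17). Of the 2 type I chains, the interaction was -2.23 ± 0.12 (SE, adjusted p = 1.34e-13) for Col1a2 and -0.30 for Col1a1. The Col1a1 value lost its call without female p53 KO replicate 1 (-0.27) or male p53 KO replicate 3 (-0.24).

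A newly made collagen chain is hydroxylated, folded with the chaperone Hsp47, trimmed of its propeptides and cross-linked outside the cell, and cells hold it through integrins and discoidin domain receptors. Of a list of 37 genes for these steps, 35 were in the table. Their calls in male p53 R172H were 10 higher and 9 lower, those in male p53 Y202C were 6 higher and 27 lower and those in male p53 Y217C were 8 higher and 19 lower, against backgrounds of 40.7%, 73.0% and 70.5% of all genes in either direction. The female lines had 23 higher and 7 lower with p53 R172H, 14 higher and 15 lower with p53 Y202C and 10 higher and 14 lower with p53 Y217C, against 69.7%, 68.6% and 56.7%. Male p53 Y202C, the line with the smallest collagen share, thus had the most genes of this list lower.

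Loxl2, a cross-linking oxidase, was at 86, 69.2, 23.2 and 10.5 RPKM on average in male p53 KO and in the male p53 R172H, Y202C and Y217C lines, and its log2 fold change in male p53 Y217C was -3.04 ± 0.06 (SE, adjusted p = 1.53e-21). It fell in all 6 comparisons, by 0.31 in male p53 R172H, 1.89 in male p53 Y202C and 1.10 to 1.64 in the female lines. Loxl4, a second oxidase of the family, was at 8.82 RPKM in male p53 KO and 44.2 in male p53 Y202C (2.33 ± 0.07 SE, adjusted p = 9.09e-19). P4ha3, a subunit of the proline hydroxylase, was at 7.82 RPKM in male p53 KO, fell to 3.5 in male p53 Y202C (-1.16) and rose to 39.5 in male p53 Y217C (2.33 ± 0.08 SE, adjusted p = 1.19e-17). It rose in the other 4 comparisons too, by 0.77 to 1.99. Tgm2, a transglutaminase that cross-links matrix proteins, was at 5.04 RPKM in female p53 KO and 23.9 in female p53 R172H (2.24 ± 0.08 SE, adjusted p = 2.74e-17). Serpinh1, which encodes Hsp47, had log2 fold changes of 0.34, -0.39 and -0.49 in male p53 R172H, p53 Y202C and p53 Y217C and 0.11, -0.53 and -0.19 in the female lines.

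Of 15 receptor genes, 12 were in the table. Their calls were 2 higher and 3 lower in male p53 R172H, 4 higher and 6 lower in male p53 Y202C and 5 higher and 5 lower in male p53 Y217C, where 40.7%, 73.0% and 70.5% of all genes passed. In females they were 5 higher and 3 lower with p53 R172H, 8 higher and 3 lower with p53 Y202C and 7 higher and 4 lower with p53 Y217C, against 69.7%, 68.6% and 56.7% of all genes. Mrc2, which takes up collagen for degradation, was at 110.1 RPKM in male p53 KO and 16.4 in male p53 Y217C (-2.74 ± 0.08 SE, adjusted p = 3.19e-19). Itga11, a fibrillar collagen integrin subunit, was at 12.6 RPKM in male p53 KO and 83.1 in male p53 Y217C (2.72 ± 0.15 SE, adjusted p = 9.14e-14). It rose in the 3 female mutant lines (2.10, 1.02 and 0.73) and in male p53 R172H (0.98), and fell in male p53 Y202C (-0.63).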

How the data were processed

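RNA-seq libraries of 8 astrocyte lines, 3 per line, were analyzed. Per the submitters' processing notes and the methods, the authors aligned reads with STAR 2.5.1a and used featureCounts of the Subread package on uniquely and unambiguously aligned reads, and the deposited values are raw counts for 14427 genes under Ensembl identifiers. The strand of counting is not given in the sources used here. Each gene had more than 1 CPM in at least 2 libraries, so the deposited table had been filtered before and genes low in every line are missing from it. Lines and replicate numbers were taken from the sample labels. Symbols, exon lengths and positions came from GENCODE M21 on GRCm38, which named 14350 of the identifiers.

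Differential expression was tested with edgeR 4.0.16 (R 4.3.3) on all 24 libraries at once, by a quasi-likelihood fit that gives each line its own mean, after TMM scaling. Adjustment followed Benjamini and Hochberg over all genes, and the threshold was 0.05. This adjusted p is the one printed throughout, and it replaces the authors' limma analysis, which is an alternative here. A filter of more than 1 CPM in 2 libraries removed no gene. RPKM values were computed from TMM-scaled library sizes. A count of 3 per library was taken as the floor, and folds against a line at or under it are lower bounds, which cover counting error only. No pair of replicates agreed within sampling noise. Alternatives were limma 3.58.1, DESeq2 1.42.0, other normalizations, filters and thresholds, the replicate number as a block, and leaving out each library. The model was tested on simulated data.

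The collagen genes, their classes, and the lists of processing, receptor and marker genes were chosen with earlier results of these data known. Levels in every library are given for the main chains and for the 2 largest rises and the 2 largest falls of each comparison of 2 lines among genes whose higher line had 10 counts or more in all of its libraries.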

Additional observations from a re-analysis of the deposited data

Results flagged for a closer look

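For each mutation, a test of the interaction asked whether the change from p53 KO differed between the male and the female line, and it passed for 26 of 35 collagen genes with p53 R172H, 28 with p53 Y202C and 30 with p53 Y217C, where it passed for 58.0%, 68.0% and 54.8% of all genes. The genes below are those that passed in opposite directions in the 2 sexes and whose interaction (male minus female log2 fold change) also passed, which held for 11.9%, 23.1% and 12.2% of all genes. Each sex is 1 culture, so a difference between sexes and a difference between cultures cannot be told apart. Each mutation is 1 line per sex, so it cannot be told apart from its line either. Trp53 was at 565 RPKM in male and 483 in female p53 R172H, 574 and 147 with p53 Y202C, and 300 and 917 with p53 Y217C. The part of these levels in the interactions was not tested.

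With p53 R172H these were Col2a1 (interaction -3.83) and Col3a1 (-2.85), both lower in the male and higher in the female line.

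With p53 Y202C, 9 of the 11 genes were lower in the male and higher in the female line. These were the fibrillar Col1a1 (-2.88), Col1a2 (-1.48), Col2a1 (-3.07), Col3a1 (-2.92), Col11a2 (-1.09) and Col27a1 (-2.02), the type VI genes Col6a2 (-1.999) and Col6a3 (-1.80), and Col23a1 (-6.42), whose male fall (-1.10) did not pass with limma voomWithQualityWeights (-0.81). Col4a4 (4.05) and Col8a1 (1.62) had the reverse pattern. Col4a4 met the CPM filter in male p53 Y202C and female p53 KO only, and Col23a1 in female p53 R172H and p53 Y202C only. Their interactions were therefore partly fixed in advance. The fibroblast and meningeal marker sum was also lower in the male line, at 126 RPKM against 194 in male p53 KO. In the female line it was higher, at 267 RPKM against 171 in female p53 KO. The microglial sum (8.89 against 31.6 in males, 33.6 against 19.4 in females) had this pattern too. So had the sum of 2 oligodendrocyte lineage markers (0.545 against 1.01, and 0.851 against 0.615). The astrocyte, mural, endothelial and neuronal sums did not. The part of the marker sums in these interactions was not tested.

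With p53 Y217C, Col15a1 (6.12), Col14a1 (5.16) and Col8a1 (1.68) were higher in the male and lower in the female line, and Col11a1 (-1.48) and Col4a5 (-1.08) were lower in the male and higher in the female line. The fibroblast and meningeal sum (64 against 194 RPKM in male p53 KO, 212 against 171 in females) moved like Col11a1 and Col4a5. So did the microglial sum (7.29 against 31.6, and 41.9 against 19.4). The astrocyte sum (84 against 57.5, and 42.9 against 51.9) moved like Col15a1, Col14a1 and Col8a1. The other sums did not move in opposite directions. The part of the sums was not tested.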

How the results depend on the processing

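No call changed direction under any alternative, and the counts of genes past the threshold stayed within 1.5 times the counts given, in all 13 comparisons. Leaving out each library in turn gave 17 to 21, 30 to 30 and 25 to 29 genes for male p53 R172H, p53 Y202C and p53 Y217C against p53 KO, and 29 to 31, 28 to 29 and 22 to 23 for the female lines. Male against female lines gave 20 to 22 in p53 KO, 22 to 27 in p53 R172H, 31 to 32 in p53 Y202C and 28 to 30 in p53 Y217C, and the interactions 25 to 28, 27 to 29 and 27 to 31. The replicate numbers do not pair the libraries. A fit with the number as a block called 19, 30, 26, 31, 30 and 22 for the 6 mutant comparisons, 22, 26, 31 and 30 between the sexes, and 26, 29 and 29 for the interactions. Deviations of same-numbered libraries had a mean correlation of -0.0116 over 84 pairs, and in none of 10 comparisons did every pair exceed 0.1.

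Of 455 pairs of a gene and a comparison, 352 passed. Calls were lost for 6 with limma voomWithQualityWeights, 1 with DESeq2, 1 with DESeq2's size factors, 8 with library totals, 2 with factors that leave out collagen genes, 3 of 271 among genes of at least 5 CPM, 3 with the block, and 5 of 325 when only the lines compared were fitted. Leaving out 1 library lost 87 of 2616 calls. Library totals in place of TMM shifted the median of all genes by 0.10 in male p53 Y217C. Genes with under 100 counts per library rest on few reads, and depth limits them most.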
